A study of Drosophila melanogaster with 4 samples.

Results

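Transcripts of the insulin and TOR growth pathways were followed across the 4 arrays of a crossed hormone and irradiation experiment in Kc167 cells. The set was defined by gene and comprised InR, chico, Akt, Pi3K92E, Tor, S6k, Thor, foxo and Tsc1, with every probe set that the platform annotation assigns to 1 of these genes alone. That gave 7 probe sets for 7 of the 9 genes, out of 13966 non-control probe sets. Each of the 7 genes had a single probe set, so no value could be compared with another probe set of the same gene. Tor was found under its current symbol mTor. Pi3K92E, the catalytic subunit of the class I phosphoinositide 3-kinase, is not analysed here, and Thor was reached only by the separate route described with its values.

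Kc167 is a female cell line derived from Drosophila melanogaster embryos, kept in serum-free CCM3 medium with penicillin and streptomycin. Control cells were incubated for 72 h, mock-treated, rested for 90 min and lysed for total RNA. Ecdysone cells received 10 µM Muristerone A, an ecdysone analog, for the same 72 h before the mock treatment. Irradiated cells had no hormone and were exposed to 280 Gy of gamma rays before the 90 min rest, and combined cells received both. Each condition was hybridised to 1 Affymetrix DrosGenome1 array. There are thus no replicates, and precision is limited by having 4 arrays in all.

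Insulin-like peptides bind the receptor InR, which phosphorylates the adaptor chico and so recruits phosphoinositide 3-kinase, and the lipid product of that kinase brings Akt to the membrane. Akt inhibits the transcription factor foxo and relieves the restraint that Tsc1 and its partner gig place on the kinase Tor. Tor in turn activates S6k and inhibits Thor, the 4E-BP protein that represses translation initiation and is also a transcriptional target of foxo. In the fly larva ecdysone signalling is known to oppose insulin-dependent growth. Much of the pathway is controlled by phosphorylation and protein location, which transcript levels do not report.

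Signals are given in MAS5 units after scaling. Signals under 119.4 units, the median over all probe sets and arrays, were raised to that floor before log2 differences were taken, and "at least" marks a fold in which the lower signal lay under it. Between 48.8% (combined) and 51.0% (ecdysone) of probe sets were above the floor. Of 13 ecdysone response genes with a probe set, 3 were at least 2-fold higher with the hormone both without and with irradiation (Eip78C, Hr3 and Hr4). Of the 11333 probe sets above the floor on at least 1 array, 2.78% were. Another 4 of the 13 were under the floor on all 4 arrays and could not reach 2-fold. Of 13 hemocyte markers 12 had a probe set, and 6 of these were above the floor in control, 9 with ecdysone, 5 after irradiation and 9 with both. Their summed signal was 2654 in control, 7913 with ecdysone, 3186 after irradiation and 9468 with both. Pxn gave 3090.7 of this with ecdysone and 5559.8 with both, against 597.7 in control. Col4a1 gave 1805.5 and 1892.3, against 50.5. The median ecdysone difference of the 12 markers on floored signals was 0.17. The hemocyte factor srp was above the floor on all 4 arrays, and crq and lz on none. Pxn, Col4a1 and vkg were at least 2-fold higher with ecdysone in each pair and Hml was at least 2-fold lower. Of the 11333 probe sets, 2.78% were higher and 2.09% lower in this way. Markers above the floor per array numbered 2 to 4 of 4 for fat body, 1 to 3 of 3 for epidermis, 1 to 2 of 3 for neurons, 0 to 2 of 3 for germline and 0 to 1 of 2 for muscle. The 3′ minus 5′ log2 difference ranged from -0.34 to 0.58 for the eIF-4a control transcript and from -0.47 to 0.93 for actin, lowest in the combined and highest in the irradiated array for both. For GAPDH it ranged from 0.52 in control to 1.81 in the combined array, and for 18S rRNA from 0.01 in the ecdysone to 4.79 in the control array. The part of these differences in the results below was not tested.

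InR, the receptor tyrosine kinase at the top of the cascade, was at 144.8 signal units in control, 49.8 with ecdysone, 35.4 after irradiation and 86.3 with both. Only the control array lay above the floor, so on the other 3 the transcript was below the level at which differences were measured. In these bulk samples fewer cells expressing a gene and less RNA per cell cannot be told apart. Its log2 difference on floored signals was -0.28 for ecdysone without irradiation and 0.00 with it, and the same values applied to irradiation without and with the hormone.

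chico, the insulin receptor substrate that links InR to phosphoinositide 3-kinase, was above the floor on all 4 arrays and had the widest range of any member on floored signals. It was at 155.7 units in control, 670.3 with ecdysone, 311.0 after irradiation and 262.7 with both. The ecdysone array stood apart and control was lowest, with the irradiated and combined arrays between them. Ecdysone was accompanied by a 4.31-fold higher signal without irradiation (log2 difference 2.11) and a slightly lower one with it (-0.24). Irradiation was accompanied by a higher chico signal without the hormone (1.00) and a lower one with it (-1.35). The signs of both treatments thus turned between their pairs, and the combined array was 0.75 above control on the log2 scale.

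Akt, the protein kinase that relays the lipid signal to foxo and the TSC complex, was at 200.5 units in control, 209.9 with ecdysone, 184.4 after irradiation and 360.2 with both. The first 3 arrays lay close together and the combined array was the highest. The log2 difference for ecdysone was 0.07 without and 0.97 with irradiation, and that for irradiation was -0.12 without and 0.78 with the hormone.

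foxo, the forkhead transcription factor that Akt holds in the cytoplasm, was at 94.1 units in control, 63.0 with ecdysone, 75.3 after irradiation and 43.4 with both. Tsc1, a subunit of the TSC complex that restrains Tor, was at 59.3, 64.1, 46.4 and 31.7 units in the same order of arrays. Both stayed under the floor on every array, so no difference is reported for either. With no call of presence used here, a transcript that is absent and one that is weak cannot be told apart.

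Tor, the kinase at the centre of the TOR complexes, was at 49.4 units in control, 219.5 with ecdysone, 118.1 after irradiation and 381.5 with both. Both arrays with hormone were above the floor and both arrays without it were below. The share of all probe sets that split this way was not counted. Tor was at least 1.84-fold higher with ecdysone without irradiation (0.88) and at least 3.20-fold higher with it (1.68). It missed the 2-fold line in the first pair because the control signal was raised to the floor: with the floor at the 25th percentile (41.7 units) or with no floor the mean difference was 1.92 and Tor was at least 2-fold higher in both pairs. The irradiation difference of Tor was 0.00 without hormone, with both arrays at the floor, and 0.80 with it.

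S6k, the ribosomal protein S6 kinase that Tor activates, was above the floor on all 4 arrays, with 1030 units in control, 562.9 with ecdysone, 556.3 after irradiation and 822.1 with both. The arrays of the single treatments were lower, at nearly the same signal, and the combined array lay between these and control. The ecdysone difference was -0.87 without and 0.56 with irradiation, and the irradiation difference was -0.89 without and 0.55 with the hormone. S6k was thus lower than control by 1.83-fold with ecdysone and by 1.85-fold with irradiation alone, comparisons that share the control array.

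Thor has no probe set in the platform annotation used here, but RefSeq's gene table lists 1 probe set among its synonyms. Of 133 probe sets that the table lists in this way, 111 also had 1 gene in the platform annotation, and the gene was the same for all 111. A further 2 had several genes and 20, among them this probe set, had none. Its signal was 48.8 units in control, 384.3 with ecdysone, 78.8 after irradiation and 64.0 with both. The ecdysone array alone was above the floor, at least 3.22-fold above control (log2 difference 1.69), and the combined array lay under it together with the irradiated one. Thor, by this probe set, therefore stood high in 1 of the 2 hormone arrays, as chico did. It is not counted among the 7 below.

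**Figure D1:**
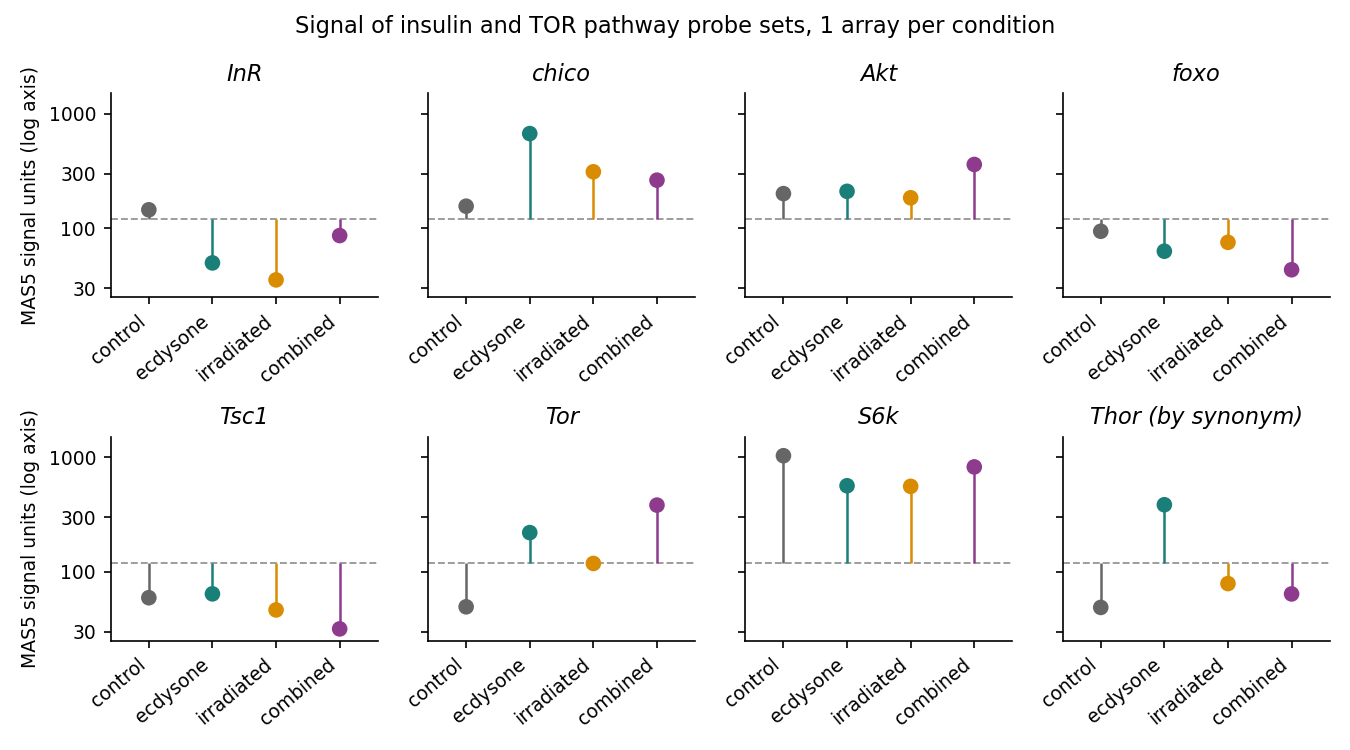
Scaled MAS5 signal of each insulin and TOR pathway probe set on a log axis, with 1 array per condition and the floor of 119.4 units as a dashed line; stems join each point to the floor. chico is highest in the ecdysone array (670.3), Tor is above the floor in both hormone arrays, foxo and Tsc1 are below it on all 4, and the probe set listed as a synonym of Thor is above it in ecdysone alone.

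Each treatment could be compared without and with the other, on separate arrays, and a probe set was called by size when both comparisons showed at least 2-fold with the same sign. None of the 7 member probe sets was called for ecdysone, where 4.87% of the 11333 probe sets above the floor on at least 1 array were called. None was called for irradiation either, against 3.50%. Only 5 of the 7 belong to that background, as foxo and Tsc1, under the floor on every array, could not be called. In single pairs chico was at least 2-fold higher with ecdysone without irradiation, where 13.0% of probe sets were (25.9% in either direction), and Tor was at least 2-fold higher with ecdysone in irradiated cells, where 11.2% were (23.0% in either direction). chico was also at least 2-fold lower with irradiation in hormone-treated cells, where 11.7% were, and no member reached 2-fold with irradiation without hormone, where 11.4% were higher and 12.0% lower and chico, at a log2 difference of 0.998, fell just short. Over the 7 members the median difference was 0.00 for both treatments, against -0.02 for both over the 11333 probe sets and 0.00 over all 13966. The member median is the value that the floor gives foxo and Tsc1, so it is not a measured lack of change.

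A test was possible only under an additive model of both treatments, fitted with limma over 5981 probe sets with a mean above the floor and adjusted by the Benjamini-Hochberg method. The members chico, Akt, Tor and S6k entered it, and the means of InR, foxo and Tsc1 lay under the floor. None passed for ecdysone, where 1.99% of the tested probe sets did, and none had an unadjusted p under 0.05, where 9.76% did. Tor had the largest fitted ecdysone difference, 1.92 with a 95% interval from -0.50 to 4.34 (limma adjusted p = 0.648). The fitted value was 0.93 for chico, with an interval from -0.56 to 2.42 (limma adjusted p = 0.762). For S6k, which had the narrowest interval of the 4, it was -0.15, from -1.04 to 0.73 (limma adjusted p = 0.953), and for Akt 0.52, from -1.25 to 2.28. For irradiation none passed, against 0.485% of the tested probe sets, none had an unadjusted p under 0.05, against 6.87%, and the smallest adjusted p of the 4 was 0.920. The intervals include more than 2-fold in at least 1 direction for each of the 4, so these data do not show that the transcripts were unaffected.

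The pairs disagreed for some members. The ecdysone difference with irradiation minus that without was -2.35 for chico, 1.43 for S6k and 0.90 for Akt, the members above the floor on all 4 arrays. For Tor and InR this gap depends on the floor and is not given. On floored signals 35.2% of the 11333 probe sets above the floor on at least 1 array had a gap of at least 1 in either direction. chico and S6k had ecdysone differences of opposite sign in the pairs, as did 29.2% of those probe sets. For irradiation chico, S6k and Akt had opposite signs, as did 3431 of the 11333 probe sets (30.3%), while 3716 had the same sign. With 1 array per condition this gap could not be tested.

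**Figure D2:**
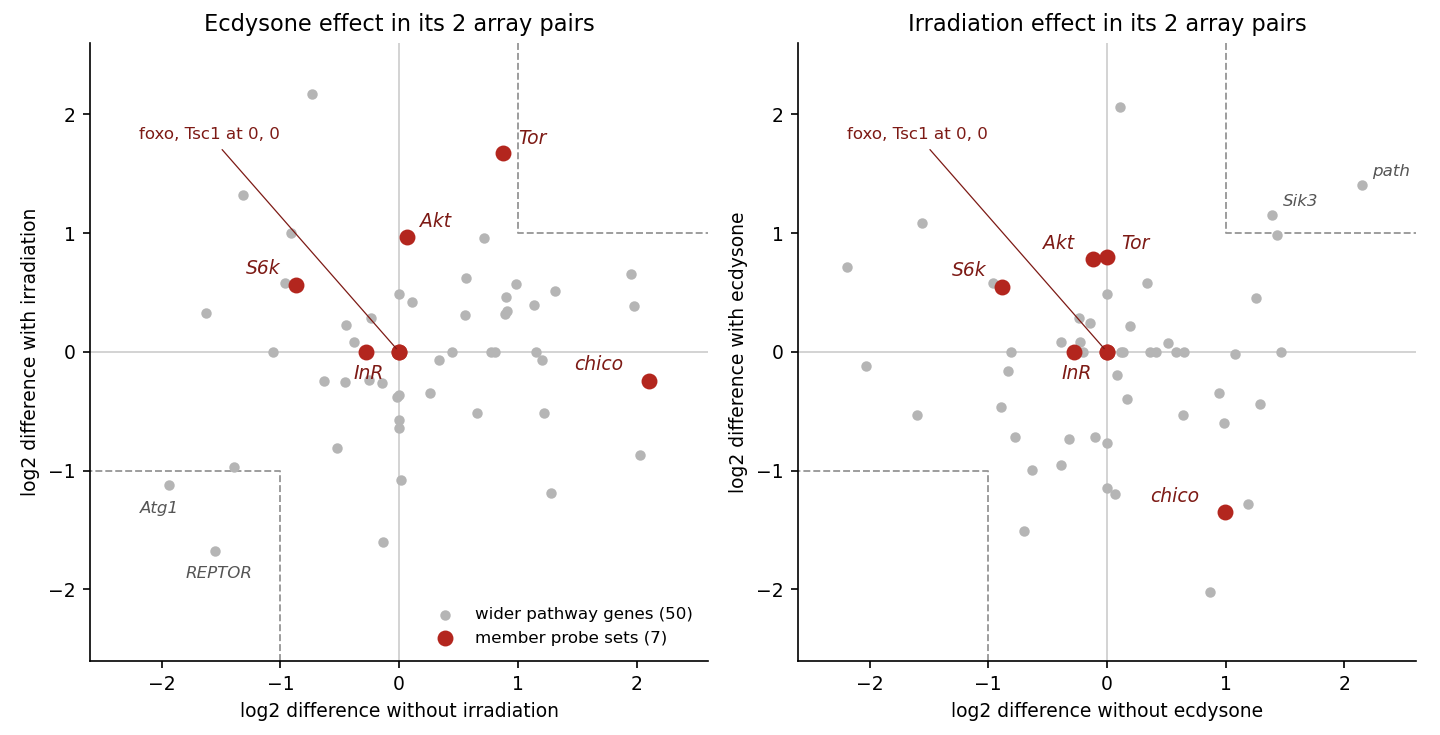
Log2 differences on floored signals in the pair without the other treatment (horizontal) against the pair with it (vertical), for ecdysone on the left and irradiation on the right; red points are the 7 members, grey points 50 other pathway genes, and dashed corners enclose differences of at least 2-fold in both pairs. No member lies in a corner, Tor comes nearest for ecdysone (0.88 and 1.68), and REPTOR and Atg1 (ecdysone) and path and Sik3 (irradiation) are the pathway genes that do.

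For chico, the member with the widest range, the nearest profiles over the 4 arrays were sought among 5286 named probe sets with a mean above the floor, by Euclidean distance between log2 signals centred on each probe set's mean. RhoGAP71E was nearest, at a distance of 0.205, with 226.0 units in control, 812.2 with ecdysone, 413.0 after irradiation and 324.5 with both. CG18766 followed at 0.241 and CG2924 just behind it, and 28 probe sets lay within 0.5. A likeness over 4 arrays is a description only.

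The rest of the pathway was read from a list of 73 other genes in 4 roles, of which 50 had a probe set of their own and 47 were above the floor on at least 1 array. Each gene was represented by its brightest probe set, and the 3 genes under the floor on all 4 arrays could not be called by size. The kinase adaptor Pi3K21B, the GTPase Rheb and the ribosomal protein RpS6 were among those without one and are not analysed here. For ecdysone 2 of the 50 were called by size, both lower, where the background was 2.09% for lower and 2.78% for higher. For irradiation 2 were called, both higher, where the background was 1.90% for higher and 1.61% for lower. The additive limma fit covered 30 of them and passed none for either treatment, with 4 at an unadjusted p under 0.05 for ecdysone and 3 for irradiation, where 9.76% and 6.87% of all tested probe sets were. The median ecdysone difference of the 50 genes was 0.03 and their median irradiation difference 0.00, against 0.00 for both over all 13966 probe sets. A difference of 0.00 is also what the floor gives a gene under it on every array.

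Among outputs of TOR and foxo, 16 of 20 genes had a probe set, and the pair that was lower with ecdysone belonged to this group. REPTOR, a transcription factor that active TOR complex keeps out of the nucleus, was at 349.6 units in control and 382.7 in irradiated cells, and at 33.1 in ecdysone and 41.7 in combined. The hormone arrays lay under the floor and the others well over it, at least 2.93-fold lower without irradiation (-1.55) and at least 3.21-fold lower with it (-1.68). Its mean signal was under the floor, so limma did not test it. REPTOR was called by size with each of the 6 other floors and scalings.

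Atg1, the autophagy kinase that Tor inhibits, was at 457.0 units in control, 22.2 with ecdysone, 260.5 after irradiation and 79.7 with both. The hormone arrays were again under the floor, at least 3.83-fold lower without irradiation and at least 2.18-fold lower with it, and the additive fit gave -3.04 (SE 1.39, limma adjusted p = 0.454). The size call of Atg1 was lost with the floor at the 60th percentile. 3 further genes of this group were singled out after their values were seen, because they had an unadjusted p under 0.05 for ecdysone without passing the adjustment. These were the kinase Lk6, which phosphorylates eIF4E (1.31 and 0.51), the lipid synthesis regulator SREBP (0.72 and 0.96) and crc, the fly ATF4 (0.90 and 0.46). Their limma adjusted p was 0.305, 0.282 and 0.348. Lk6 also had an unadjusted p under 0.05 for irradiation (limma), with differences of 1.26 without and 0.45 with the hormone. The other probe set of Lk6 had ecdysone differences of 1.06 and 0.30 and irradiation differences of 0.68 and -0.07.

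In the TOR complexes and their regulators, 19 of 24 genes had a probe set, none was called for ecdysone and 1 was called for irradiation. That gene was path, an amino acid transporter known to promote TOR-dependent growth. It was at 104.2 units in control, 261.8 with ecdysone, 529.2 after irradiation and 694.5 with both. The path signal was higher after irradiation by at least 4.43-fold without hormone (2.15) and by 2.65-fold with it (1.41). The additive fit gave 1.88 (SE 0.68, limma adjusted p = 0.415). gig, which encodes Tsc2, the partner of Tsc1, was at 488.3 units in control, 259.2 with ecdysone, 31.8 after irradiation and 239.2 with both. The irradiated array alone was under the floor, and the ecdysone difference turned from -0.91 without to at least 1.00 with irradiation. The gig signal was at least 4.09-fold lower after irradiation without hormone (-2.03) and 1.08-fold lower with it (-0.12).

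In the insulin branch, 9 of 18 genes had a probe set, and Sik3, a salt-inducible kinase that Akt phosphorylates, was called for irradiation. It was at 99.5 units in control, 174.9 with ecdysone, 313.7 after irradiation and 389.2 with both, at least 2.63-fold higher without hormone (1.39) and 2.23-fold higher with it (1.15). Its size call was lost with the floor at the 60th percentile, the adjusted p for irradiation was 0.844 (limma), and the other probe sets of Sik3 had mean differences of 0.90 and 0.00. Pdk1, the kinase that phosphorylates Akt and S6k, was at 180.0, 333.6, 138.0 and 172.5 units in control, ecdysone, irradiated and combined, with ecdysone differences of 0.89 and 0.32. Its other probe set was above the floor only with both treatments (241.6 units), with irradiation differences of 0.00 and 1.02 against -0.38 and -0.95 for the first. None of the 9 genes was called for ecdysone by its brightest probe set. Pi3K68D, a class II phosphoinositide 3-kinase, was singled out after its values were seen. Its other probe set did meet the size rule, at least 2.02-fold lower without irradiation and at least 2.09-fold lower with it.

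Among ligands and binding proteins 6 of 11 genes had a probe set and none was called by size. ImpL2, a secreted protein that binds insulin-like peptides and limits their action, was singled out after its values were seen. It was at 836.1 units in control, 1140.0 with ecdysone, 2256.1 after irradiation and 2256.2 with both. The ImpL2 signal was higher after irradiation by 2.70-fold without hormone (1.43) and by 1.98-fold with it (0.98), the latter just under the 2-fold line. The additive fit gave 1.21 (SE 0.31, limma adjusted p = 0.0855), and under median scaling ImpL2 was past both the size rule and the adjusted threshold (limma adjusted p = 0.0306), with a range over 7 alternatives from 0.0306 to 0.846.

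**Figure D3:**
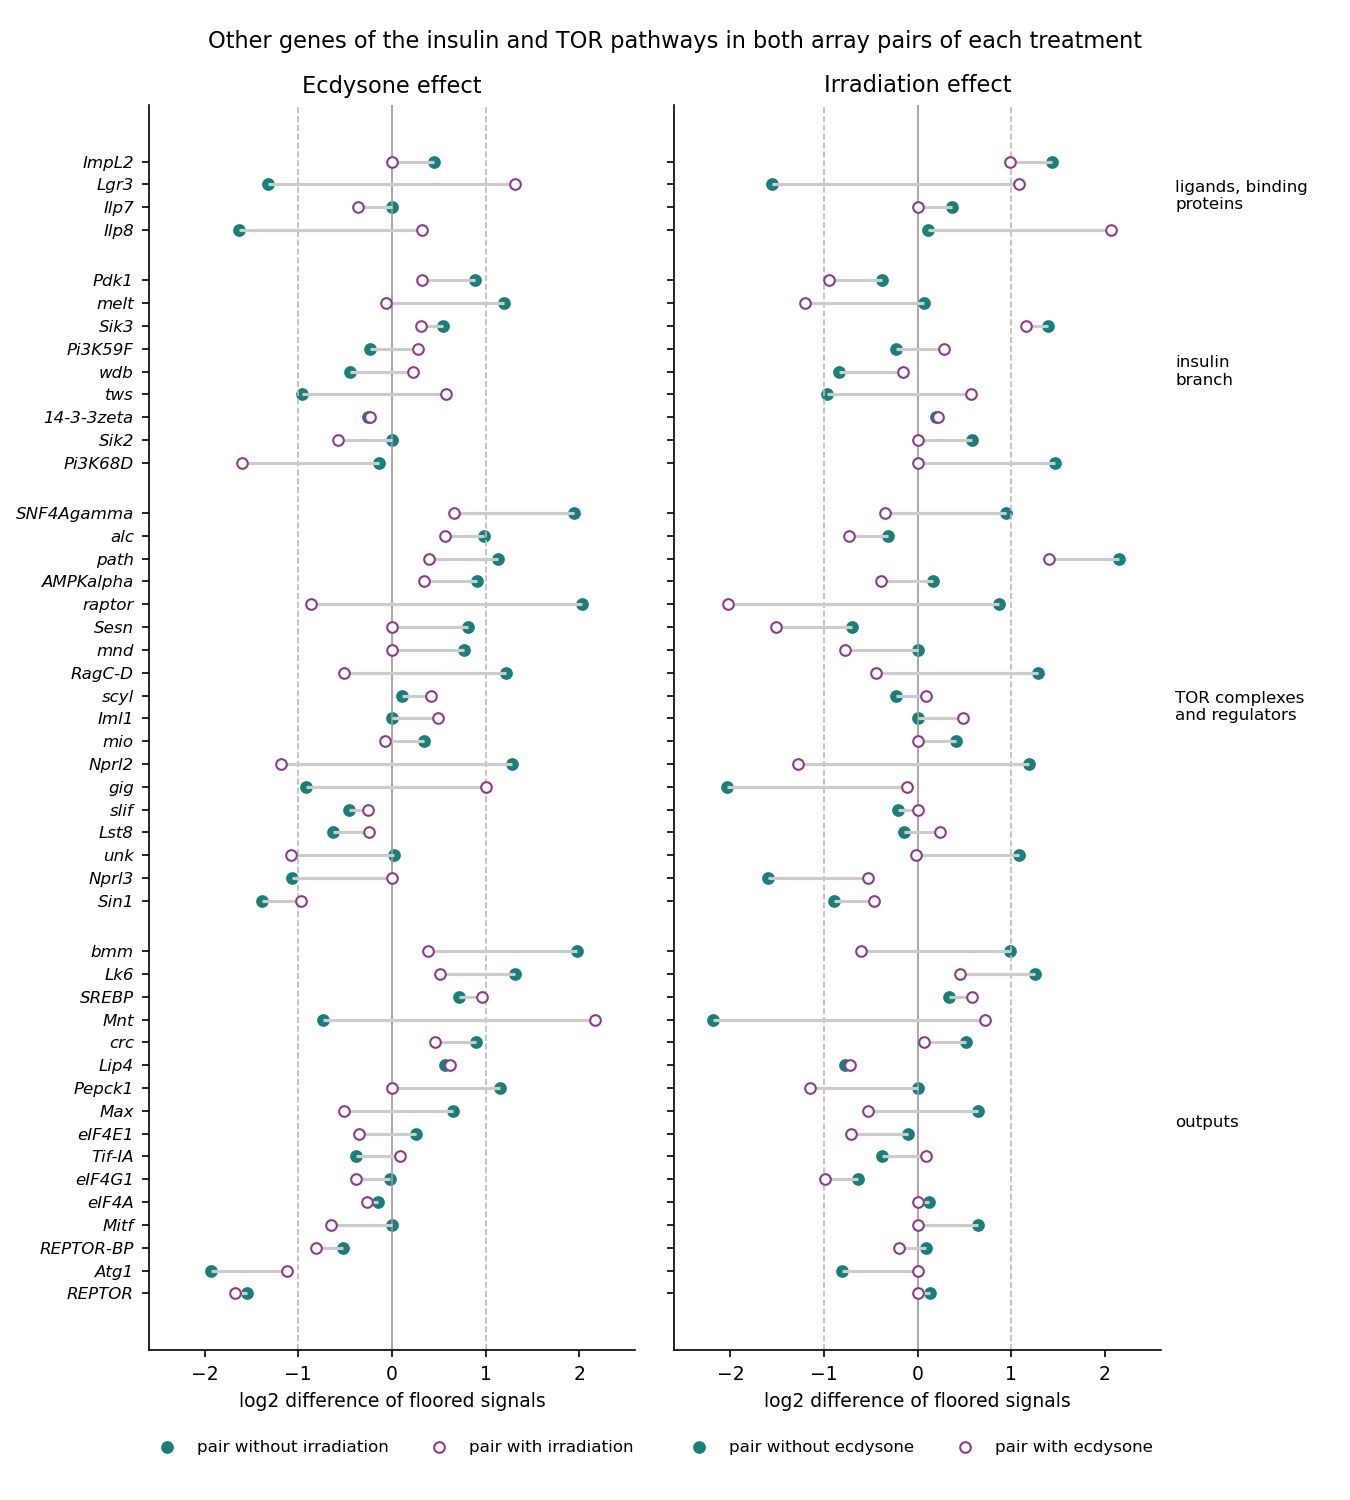
Log2 differences of the 47 other pathway genes above the floor on at least 1 array, by role, for ecdysone on the left and irradiation on the right; filled points are the pair without the other treatment, open points the pair with it, lines join the 2 and dashed lines mark 2-fold. Both points lie beyond a dashed line on the same side for REPTOR and Atg1 with ecdysone and for path and Sik3 with irradiation, and long lines show genes such as raptor whose pairs disagree.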

How the data were processed

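The deposited values are signal intensities made with MAS5, per the submitters' processing notes, whose version and settings are not given in the sources used here. Each array was scaled to a common trimmed mean of non-control probe sets (2% left out at each end), which moved no array by more than 0.0667%. Per the file headers all arrays were washed on fluidics station 2, in modules 3 (control), 4 (ecdysone), 1 (irradiated) and 2 (combined), so module and condition cannot be told apart.

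Platform symbols were updated through gene identifiers with RefSeq Release 6 plus ISO1 MT for 12394 probe sets and kept for 49, 327 had several genes and 1196 none. Signals were floored at 119.4 units, and log2 differences taken in each pair. A check on simulated data used additive changes only, so it does not show how the additive fit behaves where pairs disagree. The additive fit used unfloored log2 signals in limma 3.58.1 (R 4.3.3) with an intensity trend, 1 residual degree of freedom and a threshold of 0.05. Its p-values do not measure the spread between cultures. The rest ran in Python 3.11.15 with pandas 2.3.3 and numpy 2.4.6, with figures drawn in matplotlib 3.10.9.

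Named were all members, pathway genes past either rule, and gig, Rheb, Pdk1, Pi3K21B and RpS6, with 1 further item not reported here; others are marked as chosen after their values were seen. Members, lists and tests were chosen with earlier results of these data known. Alternatives were other scalings, floors at the 25th (41.7 units) and 60th percentile (172.7) or none, folds of 1.5 and 3, the mean over a gene's probe sets, other limma priors and filters, and, added after seeing the data, counting the Thor probe set. Detection calls were not used here.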

Additional observations from a re-analysis of the deposited data

Results flagged for a closer look

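chico had ecdysone differences of opposite sign without irradiation (2.11) and with it (-0.24), a gap of -2.35 between the pairs that was not tested. S6k had a gap of 1.43 in the other direction, from -0.87 without to 0.56 with irradiation, also untested. Of the 11333 probe sets above the floor on at least 1 array, 3311 (29.2%) had ecdysone differences of opposite sign and 3951 of the same sign. The rest had a floored difference of 0 in at least 1 pair.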

How the results depend on the processing

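The count of 0 member probe sets past limma held for both treatments under all 7 alternatives, and the count of 0 past the size rule held for irradiation under all 9. For ecdysone it became 1, Tor each time, with the floor at the 25th percentile, with no floor and at a fold of 1.5. The count of 2 pathway genes past the size rule for ecdysone became 4 with the floor at the 25th percentile, 1 at the 60th, 5 with no floor, 5 at a fold of 1.5 and 0 at a fold of 3. For irradiation the count of 2 became 4, 1, 4, 6 and 0 under the same settings, 1 when a gene's probe sets were averaged and 3, with ImpL2 added, under median scaling. For limma 1 pathway gene, ImpL2, passed for irradiation under median scaling. Without the intensity trend no probe set of 5981 passed for either treatment (limma), with 418 at an unadjusted p under 0.05 for ecdysone and 303 for irradiation. Counting the Thor probe set, an alternative chosen after seeing the data, left both member counts at 0. Differences of Tor, foxo and Tsc1 moved with the floor lowered or removed, to 1.92 for ecdysone and 1.03 for irradiation in Tor. For InR only the irradiation difference moved, to -0.50 with the floor at the 25th percentile and -0.62 with no floor. Stability of the other members cannot be read from an SD over 2 pairs. No paired analysis was possible because each condition has 1 array, so no replicate number could serve as a block; the pairs above are comparisons within levels of the other treatment.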

Other observations

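Genes were singled out here after their values were seen. None of the 3 subunits of AMPK, the energy-sensing kinase that restrains TOR, was called for ecdysone. The ecdysone differences without and with irradiation of AMPKalpha were 0.91 and 0.34, those of alc, the beta subunit, 0.98 and 0.57, and those of SNF4Agamma, the gamma subunit, 1.95 and 0.66, with limma adjusted p between 0.640 and 0.837. Over all 11333 probe sets above the floor on at least 1 array, 3951 had ecdysone differences of the same sign in both pairs, higher or lower, and 3311 of opposite sign. The share that was higher in both pairs, as these subunits were, was not counted. raptor, the scaffold of TOR complex 1, was at 34.1 units in control, 486.4 with ecdysone, 217.7 after irradiation and 58.2 with both, so that its ecdysone difference was 2.03 without and -0.87 with irradiation. Sin1, a subunit of TOR complex 2, was at 432.3 units in control, 164.9 with ecdysone, 233.5 after irradiation and 51.9 with both, with control highest and combined lowest. Its ecdysone difference was -1.39 without irradiation and -0.97 with it, where the combined signal was raised to the floor. Sin1 was called lower for ecdysone with the floor at the 25th percentile and with no floor.

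Pepck1, which encodes the gluconeogenic enzyme, was above the floor in the ecdysone array alone, at 264.8 units against 21.3 in control, 97.9 in irradiated and 117.8 in combined. The lipase gene bmm was also highest there, at 468.9 units, with 113.3 in control, 236.6 in irradiated and 309.3 in combined. Of the 47 other pathway genes above the floor on at least 1 array, 14 (29.8%) had their highest signal in the ecdysone array, against 25.6% of all 11333 such probe sets. The probe set of Pi3K68D that met the size rule was at 240.5 units in control, 12.6 with ecdysone, 249.1 after irradiation and 23.1 with both. The other was at 131.2, 85.6, 362.9 and 56.5. Its ecdysone differences were -0.14 without and -1.60 with irradiation, so both probe sets were lower with ecdysone in each pair.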
